A study of Mus musculus with 8 samples.

Results

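The Dlk1-Dio3 region is an imprinted stretch of mouse chromosome 12 that holds a few protein-coding genes, a row of long non-coding RNAs and many miRNA genes. Every probe set of the value table whose annotated symbols all belong to a list of 54 genes of the region was taken, which gave 45 of 35556 probe sets. Of these, 38 measured miRNA genes and 7 measured long hosts or protein-coding genes, namely Begain, Dlk1, Rtl1, Dio3, Meg3, Rian and a probe set shared by Mirg and Mir410. They covered 46 of the 54 symbols. Mir433 was measured only on a probe set shared with the gene 6430411K18Rik, and the other 7 symbols (Mir493, Mir654, Mir758, Mir770, Mir1188, Mir1193 and Mir1197) had no probe set in the annotation used.

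RNA came from whole brains of C57BL/6J males that had reached postnatal day 70. Their mothers had been injected 2 times a day with ethanol at 2.5 g/kg in saline, or with saline alone, on gestational days 8 and 11 (early exposure) or on gestational days 14 and 16 (late exposure). The 8 Affymetrix Mouse Gene 1.0 ST arrays fell into early ethanol, early saline, late ethanol and late saline groups of 2, and a pool of RNA from 3 mice, non-littermates by the study's methods, went on each array. A p-value therefore rests on 2 pools per group and shows nothing of the spread between single mice, and in whole brain fewer cells of a type and less RNA per cell cannot be told apart.

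The imprinted genes of the region are expressed mainly or only from 1 parental chromosome. Dlk1, Rtl1 and Dio3 are read from the paternal copy, whereas Meg3, Rian, Mirg and the small RNAs embedded in or beside them are read from the maternal copy, and the imprint is set by a methylated element upstream of Meg3. The miRNAs lie in a group around Meg3 and Rtl1 and in a large group that is best known from neurons. The large group is called the Mirg cluster here, after the long RNA Mirg. The name does not mean that Mirg hosts the whole group, since the annotated Mirg begins only past Mir485. A probe set for a miRNA gene is read here as a measure of the hairpin, in precursor or primary transcript, and not of the mature miRNA. Probe positions within the hairpins could not be checked. The paper used such probe sets on this array type beside its miRNA arrays, as for miR-679.

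Mature sequences show which miRNAs the named hairpins give rise to and which of them share a seed, the stretch that pairs with target transcripts. RefSeq (build GRCm38.p6) held 74 mature arms for the 39 measured miRNA genes, Mir410 included, and all 74 lie on the plus strand of chromosome 12. They carry 71 different seeds. The arms of the 4 miRNAs whose hairpins passed the thresholds used below in at least 1 comparison are printed first, with bases 2 to 8, the seed, in capitals.
mmu-miR-380-5p: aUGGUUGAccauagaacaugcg
mmu-miR-380-3p: uAUGUAGUaugguccacaucuu
mmu-miR-376b-5p: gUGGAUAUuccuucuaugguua
mmu-miR-376b-3p: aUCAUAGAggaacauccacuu
mmu-miR-136-5p: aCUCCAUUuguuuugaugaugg
mmu-miR-136-3p: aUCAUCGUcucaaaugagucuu
mmu-miR-412-5p: uGGUCGACcagcuggaaaguaau
mmu-miR-412-3p: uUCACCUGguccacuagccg

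The 5′ arms of these lie at chr12:109711806-109711827 (miR-380), chr12:109723471-109723492 (miR-376b), chr12:109595331-109595352 (miR-136) and chr12:109743303-109743325 (miR-412). Those of miR-380, miR-376b and miR-412 fall in the Mirg cluster and that of miR-136 opposite the Rtl1 gene. Sources used here name no genome build for the array annotation, so these are RefSeq positions and not those of probes. Only 3 seeds were shared between arms of the region, those of miR-376b-5p and miR-376c-5p (UGGAUAU), of miR-379-3p and miR-411-3p (AUGUAAC) and of miR-494-5p and miR-410-5p (GGUUGUC). The partner arms of these pairs are printed so that they can be read against each other outside the seed, followed by both arms of miR-679, which the study followed by quantitative PCR in another exposure model.
mmu-miR-376c-5p: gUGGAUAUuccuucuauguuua
mmu-miR-379-3p: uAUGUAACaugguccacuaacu
mmu-miR-411-3p: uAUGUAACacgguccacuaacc
mmu-miR-494-5p: aGGUUGUCcguguugucuucuc
mmu-miR-410-5p: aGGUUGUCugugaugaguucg
mmu-miR-679-5p: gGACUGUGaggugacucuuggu
mmu-miR-679-3p: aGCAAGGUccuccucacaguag

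The values are log2 RMA signals, and a difference is ethanol minus saline on that scale with its standard error from limma. The thresholds used were a p-value adjusted over all 23410 probe sets that carry a symbol, and the study's own pair of an unadjusted p under 0.05 with a fold change of 1.2. No probe set of the array passed the adjusted threshold in either exposure, and the adjusted p was 1 for all 45 probe sets of the region in each comparison. At an unadjusted p under 0.05 alone there were 401 probe sets in the early and 583 in the late exposure, or 1.71% and 2.49% of those tested. An exact permutation test of 2 arrays against 2 cannot give a p below 0.333.

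Background was read from 1359 olfactory and vomeronasal receptor probe sets, whose 95th percentile lay between 6.62 and 6.80 on early arrays and between 7.44 and 7.97 on late arrays, with late ethanol 1 and late saline 2 highest. Of the 38 miRNA probe sets, 14 had a mean above it in both exposures and 16 in neither. The arrays differed in their marker genes too. All 5 markers of olfactory mucosa differed at an unadjusted p under 0.05 in the early exposure (3 higher, 2 lower) and 0 of 5 in the late one. Their summed signal on the log2 scale was 12.50 and 10.36 in early ethanol, against 9.47 and 9.78 in early saline. The oligodendrocyte markers Mbp and Mobp were also above saline in early ethanol by 0.22 and 0.23 (unadjusted p = 0.0391 and 0.0268), with 3 of 3 markers measured on that side and 3 of 3 on the other side in late ethanol. Their summed signal was 13.05 and 12.89 in early ethanol, against 12.86 and 12.68 in early saline, and 13.30 and 13.33 in late ethanol, against 13.48 and 13.42 in late saline. Summed pituitary hormone signal was 8.76 and 10.82 in early ethanol, against 9.00 and 10.10 in early saline. In the late exposure it was 9.42 and 9.76 in ethanol, against 9.32 and 9.23 in saline. All 3 endothelial markers were on the lower side in both exposures, with medians of −0.18 early and −0.17 late. Of these, 0 had an unadjusted p under 0.05 by limma, and 2 were above background in both exposures. The 5 neuronal markers lay above background on every array, and 0 of 5 had an unadjusted p under 0.05 in either exposure. All 5 were nevertheless on the higher side in early ethanol, with a median difference of 0.14, and all 5 on the lower side in late ethanol, with a median of −0.04. Their summed signal was 15.27 and 15.13 in early ethanol, against 15.23 and 14.90 in early saline, and 15.22 and 14.99 in late ethanol, against 15.18 and 15.10 in late saline. The part of these shifts in the values below was not tested.

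Among the 7 long hosts and protein-coding genes only Rian passed the study's thresholds, lower after early and higher after late ethanol. Rian is a maternally expressed non-coding RNA that hosts a string of C/D box snoRNAs and some miRNAs. Its signal was 7.65 and 7.62 in early ethanol, against 7.89 and 8.05 in early saline. Both ethanol pools lay below both saline pools. The difference was −0.33 ± 0.11 (unadjusted p = 0.0161, adjusted p = 1), a fold of 1.26.

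In the late exposure the order was the opposite. Rian gave 7.93 and 7.80 in late ethanol, against 7.70 and 7.43 in late saline, with both ethanol pools above both saline pools. The difference was 0.30 ± 0.11 (unadjusted p = 0.0259, adjusted p = 1). The mean of the late arrays was 7.71 where the mean background percentile was 7.70, and only late ethanol 2 and late saline 1 exceeded the percentile of their own array. The late difference was 0.17 without late saline 2 (unadjusted p = 0.194) and 0.23 without late ethanol 1 (unadjusted p = 0.131). The early one was −0.25 without early saline 2 (unadjusted p = 0.103) and −0.31 without early ethanol 2 (unadjusted p = 0.0638).

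The early effect on Rian minus the late effect was −0.63 ± 0.16 (unadjusted p = 0.00346, adjusted p = 1). This was the lowest p among the 45 probe sets in any of the 3 comparisons. Across the array 1.99% of probe sets passed the study's thresholds for this difference between exposures, and 2 of the 45 did (2.06% of all by an unadjusted p under 0.05 alone). The value ranged between −0.76 and −0.50 when single arrays were left out. Early and late arrays differed in median signal and background, so exposure timing and array set cannot be told apart in this difference. A further probe set, annotated to Rian together with the snoRNA gene AF357355 and so outside the rule, read 10.68 and 10.24 in early ethanol, against 10.51 and 10.28 in early saline. It read 10.36 and 10.20 in late ethanol, against 10.21 and 9.72 in late saline, and the groups overlapped in both exposures. Its differences were 0.06 early and 0.32 late, so its early direction was opposite to that of the Rian probe set.

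Meg3, the maternally expressed RNA that lies next to the imprinting control element, had 11.89 and 11.81 in early ethanol, against 11.63 and 11.79 in early saline. In the late exposure it had 11.88 and 11.79 in ethanol, against 11.78 and 11.75 in saline. Both ethanol pools were above both saline pools each time, by 0.14 ± 0.09 and 0.07 ± 0.09 on average (unadjusted p = 0.149 and 0.462). In RefSeq, Mirg begins at 109734981 on chromosome 12, past the end of Mir485 at 109734974. Cluster genes before that point lie outside the annotated Mirg. The probe set shared by Mirg and Mir410 gave 9.96 and 9.66 in early ethanol, against 9.85 and 9.56 in early saline. It gave 10.27 and 10.24 in late ethanol, against 10.51 and 10.12 in late saline. The groups overlapped in both exposures, with differences of 0.10 ± 0.16 and −0.06 ± 0.16.

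The protein-coding genes showed no difference past the thresholds. Dlk1 encodes a membrane ligand related to Notch ligands that restrains differentiation, and is also strong in the pituitary. It had 8.20 and 7.91 in early ethanol, against 8.09 and 7.95 in early saline, and 8.59 and 8.45 in late ethanol, against 8.69 and 8.31 in late saline. Begain, which encodes a protein of the postsynaptic density, had 8.04 and 8.34 in late ethanol, against 8.44 and 8.29 in late saline, a difference of −0.18 ± 0.13 (unadjusted p = 0.194). In the early exposure its difference was 0.04 ± 0.13. Rtl1, a gene derived from a retrotransposon, and Dio3, which encodes the deiodinase that inactivates thyroid hormone, did not exceed background on any of the 8 arrays. Rtl1 nevertheless read 5.75 and 5.73 in late ethanol, against 5.70 and 5.52 in late saline, without overlap, and Dio3 differed by 0.01 ± 0.09 early and 0.03 ± 0.09 late.

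**Figure D1:**
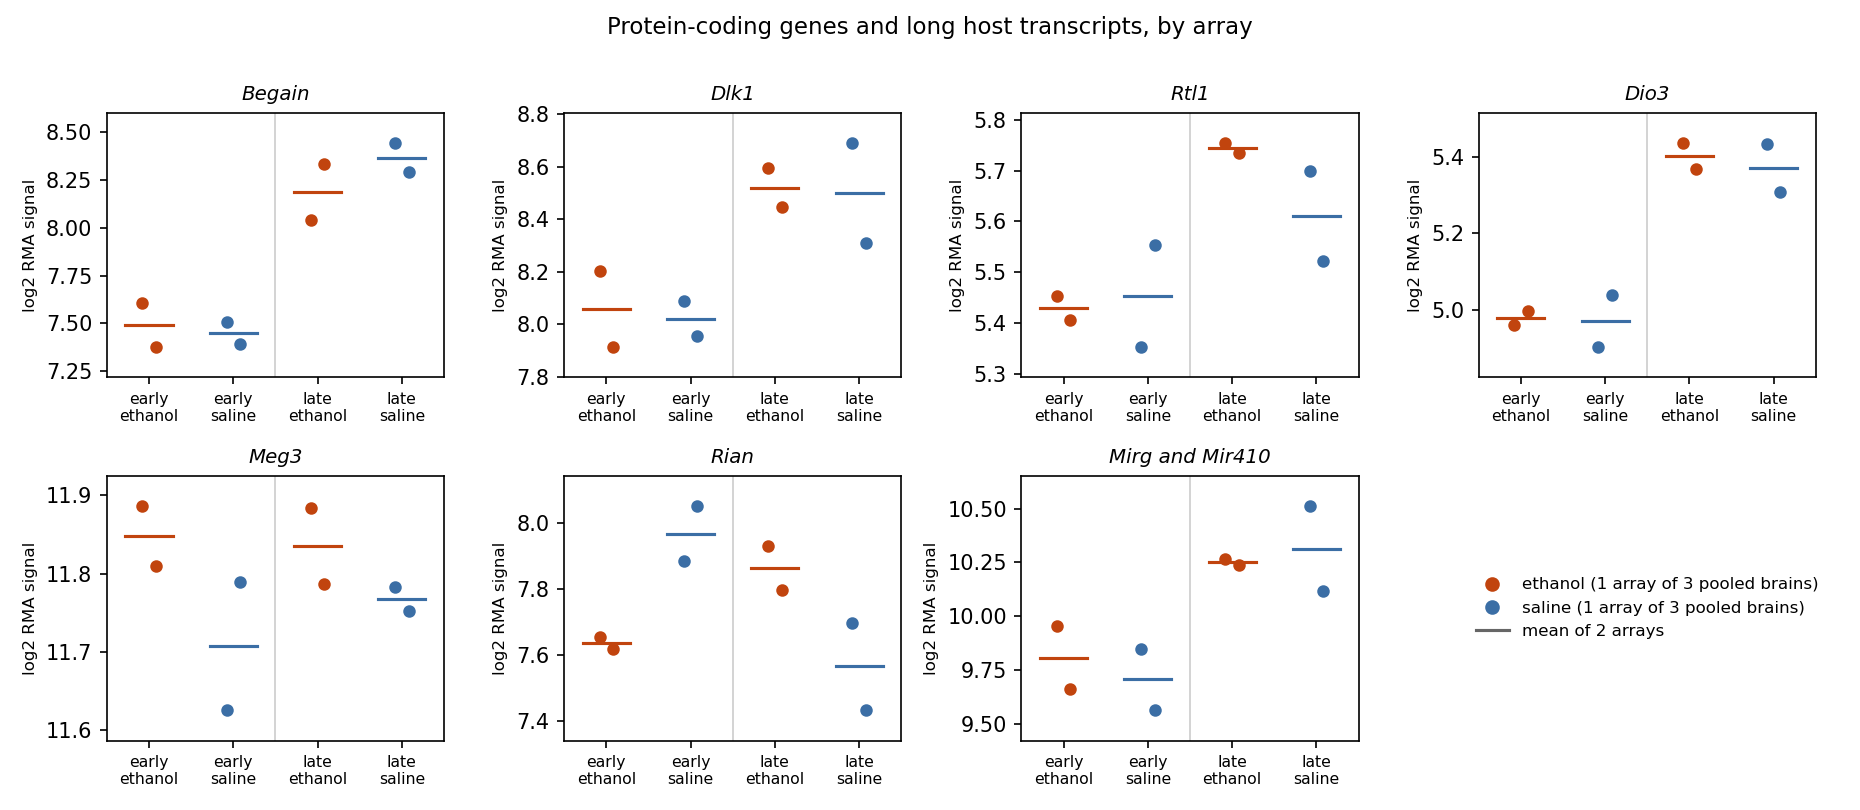
Log2 RMA signal (vertical axes, each with its own range) of the 7 long host and protein-coding probe sets in early ethanol, early saline, late ethanol and late saline arrays. Points are single arrays of 3 pooled brains and bars are means of 2 arrays. Rian lies at 7.65 and 7.62 in early ethanol, below early saline, and at 7.93 and 7.80 in late ethanol, above late saline.

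In early exposure 27 of the 38 miRNA probe sets were higher in ethanol and 11 lower, with a median difference of 0.07. Over all probe sets tested, 40.2% were higher and the median was −0.02. The 298 miRNA probe sets from elsewhere in the genome had 90 higher and a median of −0.03. Only 3 of the 45 probe sets of the region passed the study's thresholds, Rian and 2 miRNAs, where 0.923% of all probe sets did. The 2 ethanol pools lay above the 2 saline pools at 6 miRNA probe sets and below at 3, against 7.5% above and 18.9% below over the array.

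Mir380 showed the biggest early difference of the 38. MiR-380-5p is known from neuroblastoma cells as a repressor of the tumour suppressor gene Trp53. The hairpin gave 7.48 and 7.22 in early ethanol, against 6.70 and 7.22 in early saline. One saline pool was low and the other all but reached the ethanol pools. The difference was 0.39 ± 0.16 (unadjusted p = 0.0433, adjusted p = 1), and it was 0.13 without early saline 1 (unadjusted p = 0.36) and 0.26 without early ethanol 1 (unadjusted p = 0.22). Without any 1 of the late arrays, which enter only the spread, the p lay between 0.0558 and 0.0623. In late exposure the hairpin was at background on all 4 arrays.

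The other early miRNAs with the lowest p on the higher side were Mir323, Mir300, Mir377 and Mir376b. Mir300 had 7.69 and 7.52 in early ethanol, against 7.19 and 7.55 in early saline (0.24 ± 0.12, unadjusted p = 0.0885), and Mir377 had 9.32 and 9.21 in early ethanol, against 9.22 and 8.94 in early saline (0.19 ± 0.12, unadjusted p = 0.154). Both overlapped. Mir323, at background, was 0.21 ± 0.10 above saline without overlap (unadjusted p = 0.0686).

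On the lower side in early ethanol were Mir412 and Mir136, both at background on every array of both exposures, so that their values give no fold of expression. Mir136, one of the miRNA genes antisense to Rtl1, read 5.48 and 5.64 in early ethanol, against 5.94 and 5.77 in early saline. The difference was −0.30 ± 0.13 (unadjusted p = 0.0432, adjusted p = 1), and it was −0.22 without early ethanol 1 or early saline 1 (unadjusted p = 0.2 and 0.208). Mir412 read 6.05 and 5.80 in early ethanol, against 6.22 and 6.14 in early saline, and its difference of −0.25 ± 0.10 (unadjusted p = 0.0352, adjusted p = 1) stayed just under 1.2-fold. Next in order came Mir666, which was above background with 6.94 and 7.02 in early ethanol, against 7.12 and 7.13 in early saline (−0.14 ± 0.09, unadjusted p = 0.172), then Mir376c at −0.11 and Mir154 at −0.08.

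In late exposure 28 of the 38 miRNA probe sets were higher in ethanol and 10 lower, with a median difference of 0.10 beside −0.01 for all probe sets, 47.3% of which were higher. The 298 other miRNA probe sets had 233 higher and a median of 0.07, so the lean toward higher values was not limited to the region. Of the 45 probe sets, 2 passed the study's thresholds, Rian and Mir376b, where 1.16% of all did. The ethanol pools lay above both saline pools at 15 miRNA probe sets and below at 0, against 12.7% above and 15.7% below over the array.

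Mir376b belongs to a family whose transcripts are edited in mouse brain by adenosine deamination. It gave 7.90 and 7.81 in late ethanol, against 7.69 and 7.47 in late saline. The pools did not overlap, and the difference was 0.28 ± 0.12 (unadjusted p = 0.0494, adjusted p = 1). Only 2 of the 4 late arrays exceeded their own background percentile there. The value was 0.17 without late saline 2 (unadjusted p = 0.272) and 0.39 without late saline 1. Without late ethanol 1 or late ethanol 2 the unadjusted p was 0.177 and 0.0737. In early exposure the same hairpin had 7.01 and 7.21 in ethanol, against 7.05 and 6.80 in saline, with overlap (0.18 ± 0.12, unadjusted p = 0.163).

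The neighbours of Mir376b gave mixed values. Mir376c, whose 5′ arm has the same seed as miR-376b-5p, was at background and differed by −0.11 ± 0.11 early and 0.13 ± 0.11 late. Mir376a differed by 0.27 ± 0.18 early and −0.01 ± 0.18 late, and Mir300 by 0.24 ± 0.12 early and 0.23 ± 0.12 late. None of these passed a threshold.

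Mir300 had 7.91 and 7.89 in late ethanol, against 7.69 and 7.64 in late saline, with little spread within either pair (unadjusted p = 0.0917). Mir382 gave 9.31 and 9.41 in late ethanol, against 9.29 and 8.91 in late saline, a difference of 0.26 ± 0.16 (unadjusted p = 0.129). The biggest late difference was at Mir487b, which had 7.48 and 6.99 in late ethanol, against 7.14 and 6.41 in late saline. The difference was 0.46 ± 0.23 (unadjusted p = 0.0797), but the hairpin was at background and the groups overlapped. It was 0.096 without late saline 2 and 0.83 without late saline 1. Mir494, whose late mean was at background, read 7.87 and 7.75 in late ethanol, against 7.72 and 7.35 in late saline (0.28 ± 0.16, unadjusted p = 0.123). Without late saline 2 the differences of Mir382 and Mir494 were 0.075 and 0.093, and without late saline 1 they were 0.45 and 0.46. On the lower side the lowest p-values were those of Mir411 (0.245), Mir369 (0.246), Mir154 (0.335), Mir409 (0.604) and Mir341 (0.684), with differences between −0.14 and −0.04 and overlapping groups.

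**Figure D2:**
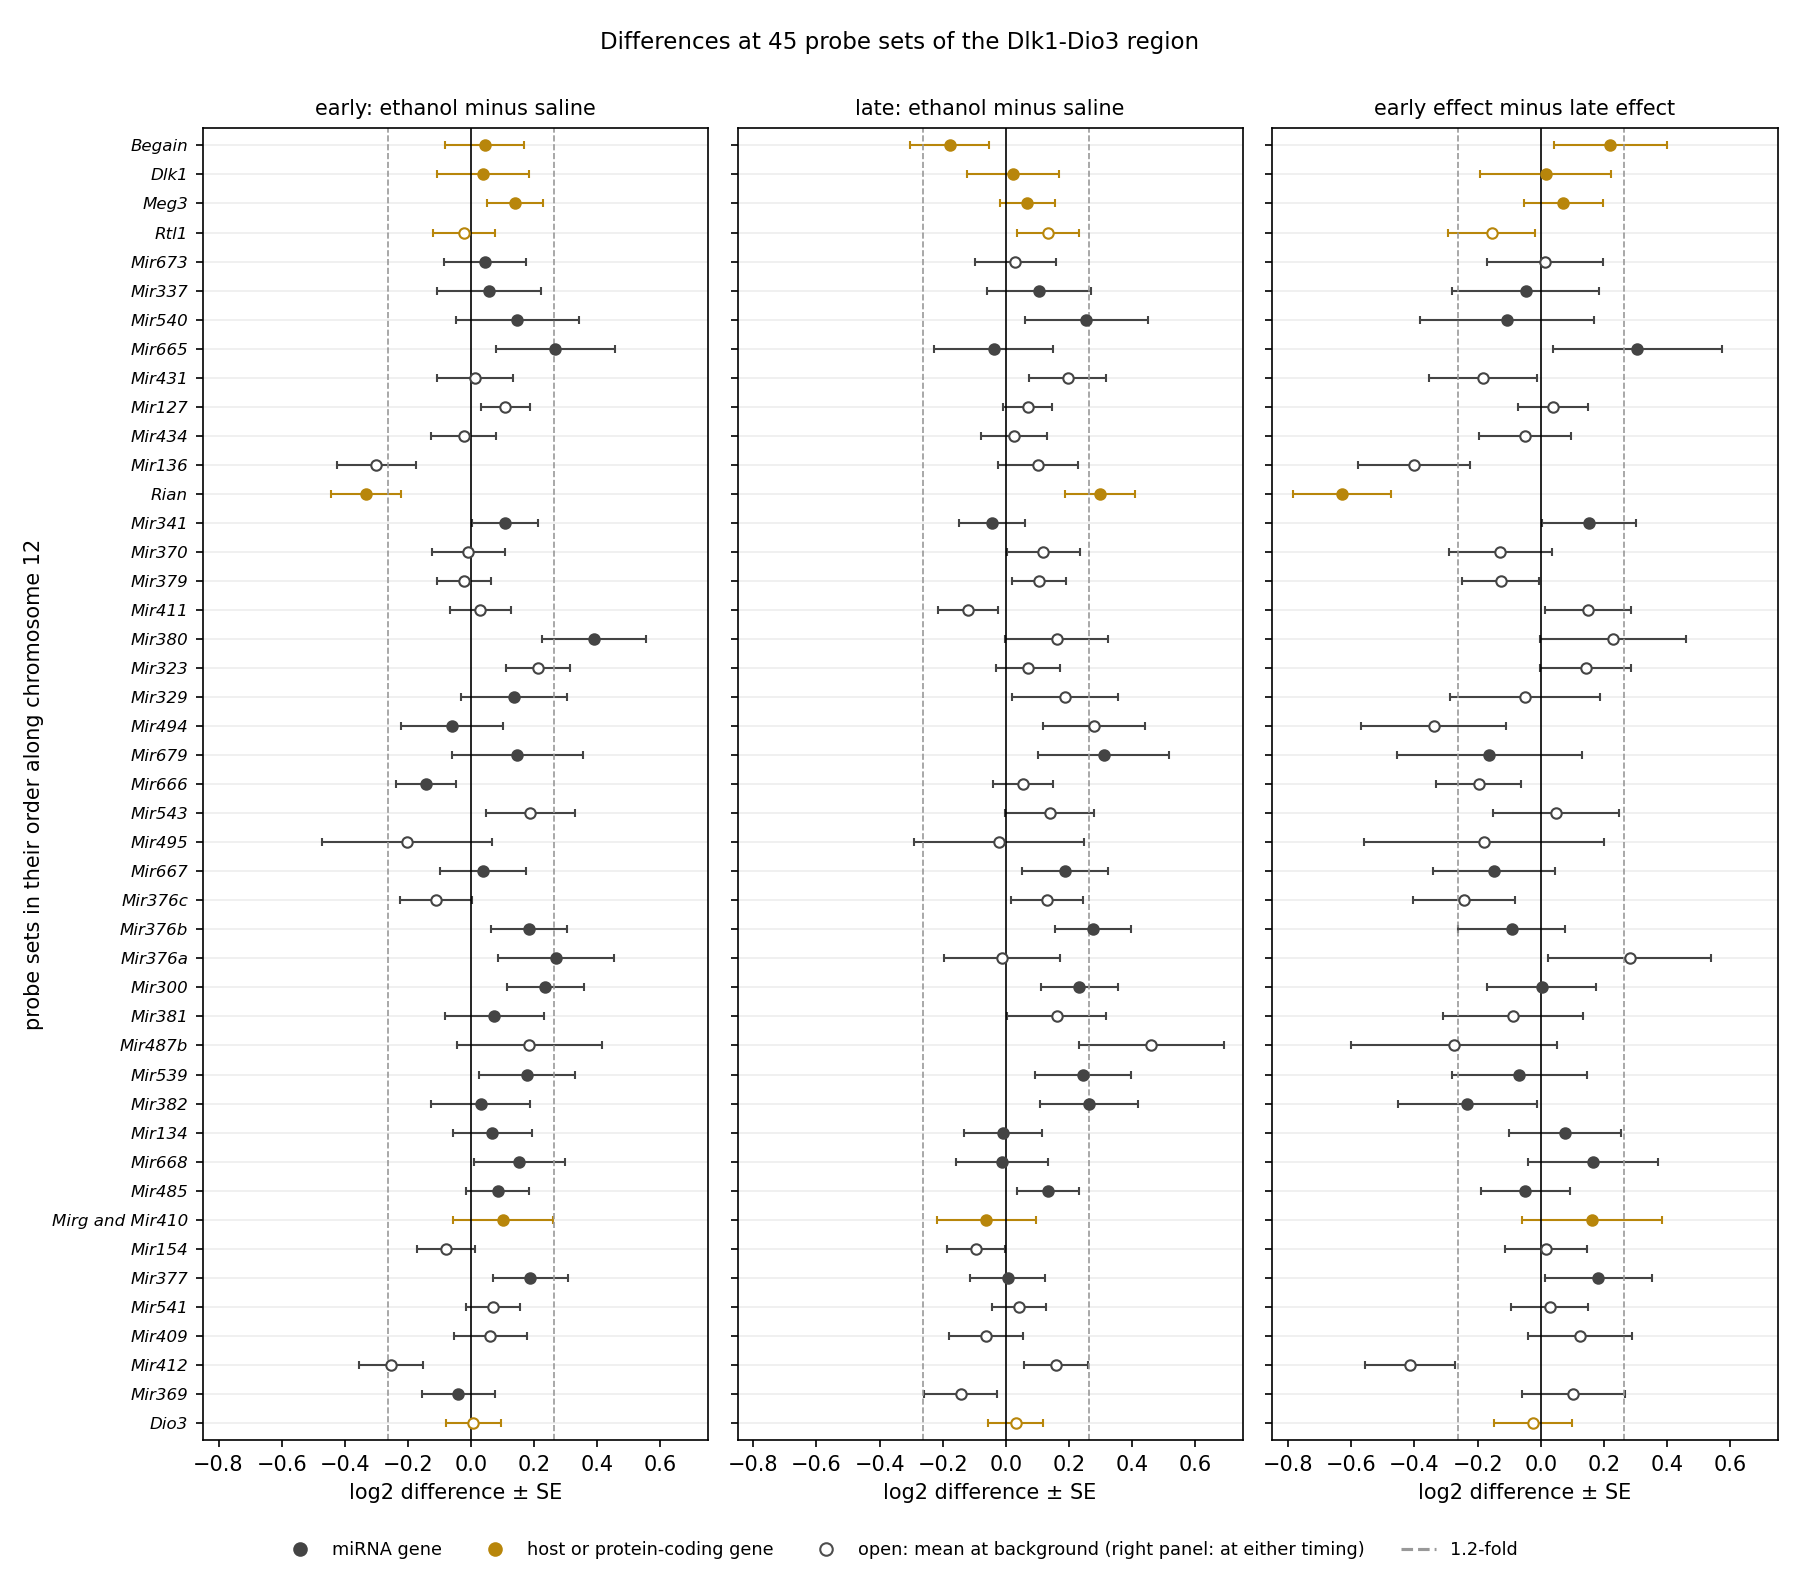
Log2 difference (horizontal axes) with its standard error for each of the 45 probe sets, in their order along chromosome 12, for early ethanol minus saline, late ethanol minus saline, and the difference between the early and late effects (early minus late). Open symbols are at background and dashed lines mark 1.2-fold. Most miRNA probe sets lie right of 0 in both exposures (27 and 28 of 38), and Rian lies farthest left in the panel of the difference, at −0.63.

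The miRNA genes fell into 4 groups by position. The 4 antisense to Rtl1 (Mir431, Mir127, Mir434 and Mir136) were all at background in both exposures. Mir127, which with its neighbours limits Rtl1 in the mouse placenta, was 0.11 ± 0.08 above early saline and 0.07 ± 0.08 above late saline, each time without overlap. It was 1 of 3 members, beside Meg3 and Mir380, whose ethanol pools lay above the saline pools in both exposures, as 1.07% of all probe sets did. Of the 3, only Meg3 was above background in both exposures. Within single exposures the region also had more such probe sets, 7 of 45 early and 18 of 45 late, against 7.5% and 12.7% over the array. The 1.07% takes no account of that lean. Mir431 differed by 0.01 ± 0.12 early and by 0.20 ± 0.12 late, where it read 7.40 and 7.44 in ethanol, against 7.31 and 7.13 in saline.

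On the Meg3 side Mir673, Mir337, Mir540 and Mir665 were all higher in early ethanol, with a median of 0.10. Mir665 read 9.46 and 9.71 in early ethanol, against 8.99 and 9.65 in early saline (0.27 ± 0.19, unadjusted p = 0.193), and Mir540 read 8.31 and 8.33 in early ethanol, against 7.81 and 8.54 in early saline. In both, early saline 1 was the low pool. In the late exposure Mir540 read 7.95 and 7.86 in ethanol, against 7.64 and 7.66 in saline, a difference of 0.25 ± 0.19, and Mir665 differed by −0.04. Of the 2 genes near Rian, Mir341 had 10.86 and 10.95 in early ethanol, against 10.66 and 10.93 in early saline, and 11.08 and 11.03 in late ethanol, against 11.16 and 11.04 in late saline. Mir370 was at background and differed by −0.01 early and 0.12 late. Neither passed a threshold.

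The 28 probe sets of the Mirg cluster had 20 higher and 8 lower in ethanol in each exposure, with medians of 0.07 early and 0.13 late. Mir134, known in rat hippocampal neurons for its action on Limk1 in dendritic spines, was well above background with 9.12 and 9.04 in early ethanol, against 9.16 and 8.87 in early saline. It had 8.98 and 9.09 in late ethanol, against 9.18 and 8.91 in late saline, and the groups overlapped both times. Mir485 had 9.24 and 9.07 in late ethanol, just above 9.07 and 8.97 in late saline (0.13 ± 0.10, unadjusted p = 0.216). Mir679 had 9.86 and 9.44 in late ethanol, against 9.63 and 9.05 in late saline. Its difference of 0.31 ± 0.21 (unadjusted p = 0.172) was 0.60 without late saline 1 and 0.02 without late saline 2. In early exposure Mir679 had 9.08 and 8.95 in ethanol, against 8.71 and 9.02 in saline (0.15 ± 0.21). Mir369, which the study names beside it, had 7.36 and 7.19 in early ethanol, against 7.41 and 7.23 in early saline (−0.04 ± 0.12), and −0.14 ± 0.12 in the late exposure. Mir495, at background, varied most between pools of 1 group, with 7.18 and 6.19 in late saline.

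**Figure D3:**
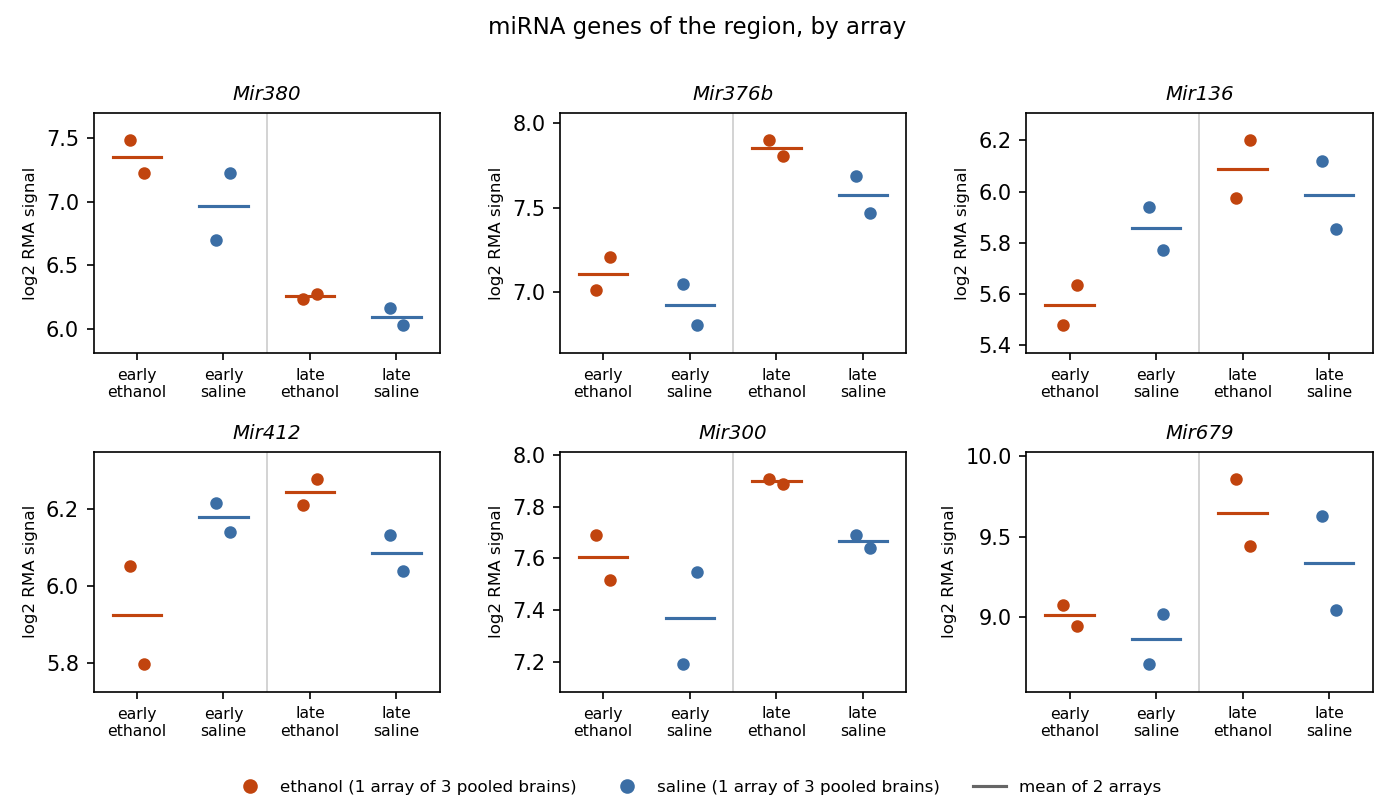
Log2 RMA signal (vertical axes, each with its own range) of 6 miRNA probe sets in early ethanol, early saline, late ethanol and late saline arrays. Points are single arrays of 3 pooled brains and bars are means of 2 arrays. Mir376b and Mir300 in late exposure show ethanol above saline without overlap, and Mir380 in early exposure shows 1 low saline array at 6.70.

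The lean of the miRNA probe sets toward higher values in ethanol varied in size with the saline array left out in each exposure. With 2 saline arrays, a lower median without 1 goes with a higher median without the other. The values below therefore cannot show which saline array carries the lean. Late saline 2 was the lowest of the 4 late arrays at 26 of the 38 miRNA probe sets, and late ethanol 1 was the highest at 19. Set against the mean of the 4 late arrays, the median deviation was 0.07 and 0.02 in late ethanol 1 and 2, against 0.03 and −0.12 in late saline 1 and 2. The 298 other miRNA probe sets gave 0.09 and −0.03 in late ethanol, against 0.03 and −0.09 in late saline, so the same 2 arrays stood apart there. These were also the 2 arrays with the highest background percentiles, and the part of background in these values was not tested. Without late saline 2 the late median of the 38 was 0.03, and without late saline 1 it was 0.19.

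Early saline 1 was likewise the lowest of the early arrays at 21 of 38 probe sets. The early deviations were 0.05 and 0.00 in early ethanol 1 and 2, against −0.08 and 0.07 in early saline 1 and 2. Unlike in the late exposure, the 298 other miRNA probe sets did not set the same array apart. They gave 0.003 and −0.031 in early ethanol, against −0.026 and 0.068 in early saline. Over 58 snoRNA probe sets early saline 1 was the highest early array, at 0.11. The early median was 0.00 without early saline 1 and 0.14 without early saline 2.

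**Figure D4:**
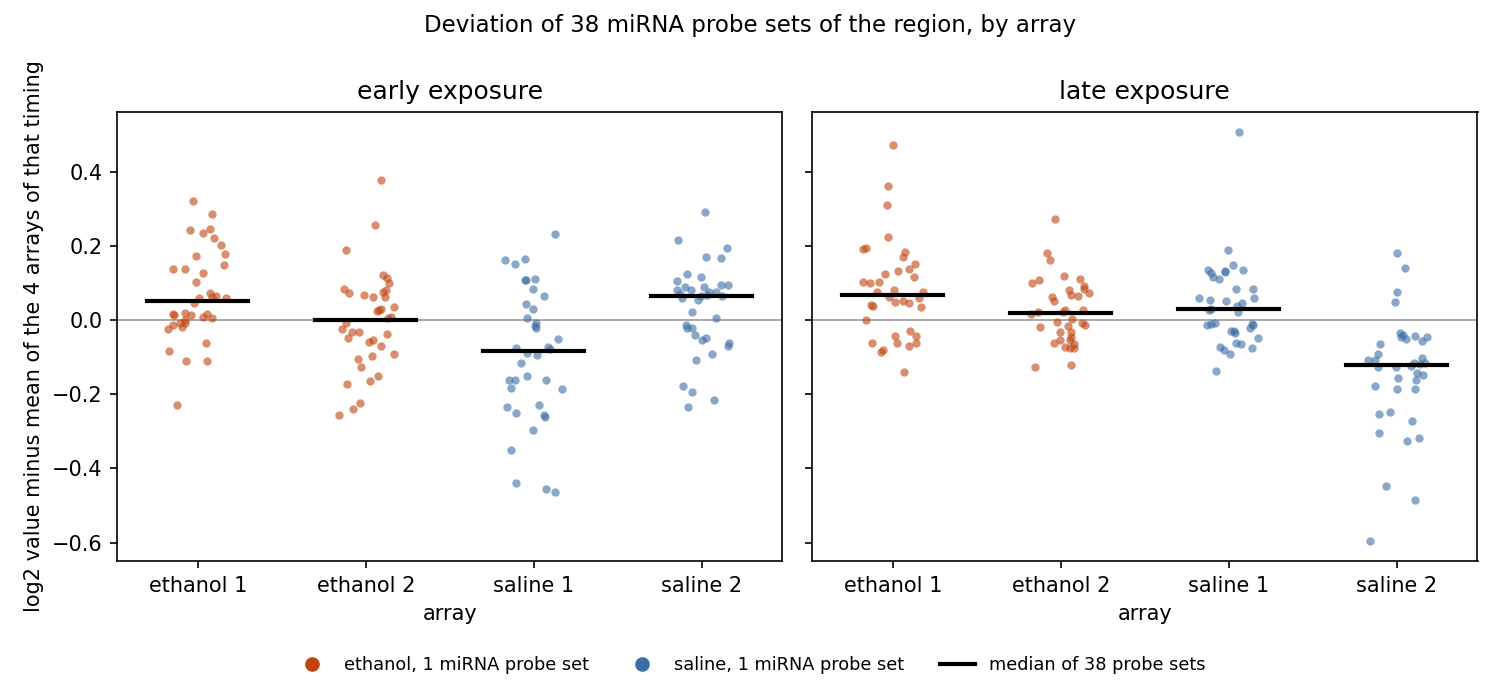
Deviation of each of the 38 miRNA probe sets from the mean of the 4 arrays of its exposure (vertical axis, log2), by array, with ethanol arrays left of saline arrays. Bars are medians over the 38 probe sets. Early saline 1 at −0.08 and late saline 2 at −0.12 are the low arrays, and in each exposure the other saline array has a median above 0.

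Direction was the same in both exposures at 23 of the 38 miRNA probe sets, with 20 higher in both and 3 lower in both. Over the array 46.7% of all probe sets kept their direction. With 27 of the 38 higher early and 28 higher late, most would share a direction even if the exposures were unrelated. The count therefore does not show agreement between exposures. Spearman's rho between the early and the late differences was 0.19 over the 38 probe sets, which share the arrays and the array pattern just given. Across the 37 hairpins with a sequence in RefSeq, the differences had a rho with GC content of 0.10 early and −0.09 late, and a rho with order along the chromosome of −0.01 early and −0.09 late. Hairpin GC content spanned 29.1% to 62.0%.

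For the early effect minus the late effect the median of the 38 miRNA probe sets was −0.05, beside −0.02 for all probe sets. Mir412 was the miRNA with the lowest p. Its late values were 6.21 and 6.28 in ethanol, against 6.13 and 6.04 in saline, so that ethanol lay below saline early and above it late, and the difference of the effects was −0.41 ± 0.14 (unadjusted p = 0.0194, adjusted p = 1). It was −0.29 without early ethanol 2 (unadjusted p = 0.0768). All of these values are at background. Mir136 followed at −0.40 ± 0.18 (unadjusted p = 0.053) and Mir376c at −0.24 ± 0.16. On the opposite side were Mir665 (0.31 ± 0.27), Mir376a (0.28 ± 0.26) and Mir411 (0.15 ± 0.14), with unadjusted p-values of 0.282, 0.307 and 0.301.

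Genes that act on the region or its products were taken by list. Of 21 probe sets for the enzymes and effectors of the miRNA pathway, 1 had an unadjusted p under 0.05 in early and 2 in late exposure, where 1.71% and 2.49% of all probe sets did, and 0 of these reached 1.2-fold. Prkra, a partner of Dicer, was at background and differed by −0.19 ± 0.08 early (unadjusted p = 0.045). A probe set for Ago2, the Argonaute that cleaves targets, had 9.28 and 9.28 in late ethanol, against 9.60 and 9.46 in late saline (−0.25 ± 0.09, unadjusted p = 0.0227), whereas its second probe set differed by −0.01. The probe sets for Tarbp2 were at background, and 1 of them differed by 0.23 ± 0.10 late (unadjusted p = 0.0484). Among 22 probe sets for imprint and transcription regulators of the region and 13 for thyroid hormone genes, 0 had an unadjusted p under 0.05 in either exposure by limma, beside 401 early and 583 late over the array.

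Of 8 probe sets for genes studied as targets of these miRNAs, 1 passed the study's thresholds in early exposure, where 0.923% of all probe sets did, and 0 in late exposure. Dcx, a microtubule protein of migrating neurons, had 8.72 and 9.04 in early ethanol, against 9.14 and 9.32 in early saline (−0.35 ± 0.14, unadjusted p = 0.0359, adjusted p = 1). It no longer passed without early ethanol 1 (−0.19, unadjusted p = 0.252), early saline 2 (−0.25, unadjusted p = 0.184) or either late ethanol array (unadjusted p = 0.0521). Of 21 probe sets for genes that flank the region, 0 had an unadjusted p under 0.05 early and 2 late, where 2.49% of all did. These were Cinp at −0.20 ± 0.08 (unadjusted p = 0.0262) and 1 of 3 probe sets of the chaperone gene Hsp90aa1, with 12.55 and 12.62 in late ethanol, against 12.82 and 12.92 in late saline (−0.28 ± 0.10, unadjusted p = 0.0271). The Hsp90aa1 call was lost without late ethanol 1, late ethanol 2 or late saline 2 (unadjusted p = 0.105, 0.0518 and 0.124). The other 2 probe sets of Hsp90aa1 gave −0.21 and −0.20, also without overlap. The single probe set for a C/D box snoRNA of the region, AF357341, was at background and differed by −0.06 early and 0.01 late.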

How the data were processed

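The authors deposited log2 signals per probe set. Per the labels and methods, arrays were read with Affymetrix Command Console, summarized by RMA with GC adjustment and quantile normalization, and log2-transformed in Partek (version 6.6 in the submitters' processing notes). The processing of the late arrays was not described apart, and the paper counted expression data for that timing, its trimester 2, as unavailable. No genome build is given in the sources used here. Median signals over the probe sets with a symbol, 7.10 to 7.14 in early and 7.57 to 7.60 in late arrays, differed, so levels were compared within exposures only. The early effect minus the late effect sets both groups of arrays against each other, so timing and array set are confounded in it. No 2 arrays shared more than 6 identical values.

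Of 35556 probe sets, 12146 without a symbol were left out. A mean per group over all 8 arrays was fitted in limma 3.58.1 (R 4.3.3) with moderated variances and Benjamini-Hochberg adjustment over 23410 probe sets, and the code was tested on simulated data. A probe set was at background when its mean over an exposure did not exceed the mean of the arrays' background percentiles. The probe set of Mirg and Mir410 was counted with the hosts. Members, lists and naming rule were chosen with earlier results of these data known. Named were all hosts and protein-coding genes, the 5 miRNAs per direction with the lowest p in each exposure (3 for the difference of effects), 4 miRNAs named by the study, and of the other lists those with an unadjusted p under 0.05 among the 3 lowest. Mir134, Mir127, Mir370, Mir540, Mir485, AF357341, the second Ago2 and the other Hsp90aa1 probe sets were added after values were seen. Alternatives covered the test, arrays in the fit, replicate block, centring, normalization and filters. They also covered 1 value per gene (the mean of its probe sets), an intensity trend and leaving out each array. A block with crossed late numbers, and medians over miRNAs above background, were added after seeing the data. Whether equal numbers pair arrays is not stated in the labels. Deviations from group means of arrays with the same number correlated at 0.47 early and −0.46 late, so no pairing was assumed. The number of arrays limits precision. Figures used matplotlib 3.10.9 (Python 3.11.15).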

Additional observations from a re-analysis of the deposited data

Results flagged for a closer look

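At 2 probe sets of the region the effect of ethanol differed between the exposures at an unadjusted p under 0.05 in the test of that difference, and neither passed adjustment over all probe sets (adjusted p = 1). For Rian the early effect minus the late effect was −0.63 on the log2 scale, with −0.33 early and 0.30 late. Both ethanol pools were on the same side of both saline pools within each exposure. Its late values lay close to background, and the probe set shared with AF357355 differed by 0.06 early and 0.32 late. For Mir412 the difference was −0.41, with −0.25 early and 0.16 late, all at background. The Mir412 value by limma was −0.34 after quantile normalization (unadjusted p = 0.0627) and −0.29 without early ethanol 2 (unadjusted p = 0.0768). Its unadjusted p by limma was 0.0583 without early saline 1, 0.055 without late ethanol 2 and 0.0615 without late saline 2. Over the array, 483 probe sets (2.06%) had an unadjusted p under 0.05 for this difference. Exposure timing and array set cannot be told apart in it.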

How the results depend on the processing

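Past the study's thresholds lay 216 probe sets early, 272 late and 465 for the difference of effects. These counts were 60, 58 and 234 with an unmoderated test, and 669, 674 and 854 with every probe set included. Of the 45 probe sets of the region, 3 early, 2 late and 2 for the difference passed. The unmoderated test gave 0 early and 0 late, and inclusion of every probe set gave 1 and 1. The late count was 1 with an intensity trend, 1 without the lowest 25% of probe sets and 4 after quantile normalization, which also gave 1 for the difference. With the replicate number as a block the late count was 4. In that fit, which rests on numbers the arrays are not known to share, 229, 354 and 582 probe sets of the array passed and 0 passed the adjusted threshold. With the late numbers crossed the counts were 564, 519 and 1099 over the array, and 5 early and 1 late in the region. The causes were not tested.

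Single arrays moved the counts more. Over the array they ran between 210 and 781 early, the highest without early saline 2, between 242 and 1750 late, the highest without late ethanol 2, and between 233 and 1284 for the difference. Past the adjusted threshold were 13 early and 5 for the difference without early ethanol 2, and 0 in each comparison without any other single array. In the region 2 to 7 passed early (7 without early saline 2), 0 to 8 late (0 without late ethanol 1, 1 without late saline 2, 4 without late ethanol 2, 8 without late saline 1) and 1 to 5 for the difference (1 without late saline 2, 5 without early saline 2 or late saline 1). The late median of the miRNA probe sets ran between 0.029 and 0.19, and the early median of the hosts and protein-coding genes between −0.047 and 0.16. Over miRNAs above background the medians were 0.12 early and 0.16 late.

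Differences near 0 changed sign after quantile normalization over all 8 arrays. Late Dio3 became −0.0049, late Mir341 0.0089, late Mirg and Mir410 0.0025 and early Rtl1 0.0039, and the difference of effects became 0.033 for Dio3, −0.033 for Dlk1 and −0.076 for Meg3. Leaving out an array turned others. Early ranges were −0.072 to 0.16 for Begain, −0.11 to 0.18 for Dlk1, −0.061 to 0.075 for Dio3, −0.12 to 0.077 for Rtl1 and −0.047 to 0.25 for Mirg and Mir410. They were −0.13 to 0.049 for Mir369, −0.23 to 0.0057 for Mir376c, −0.16 to 0.19 for Mir431 and −0.0083 to 0.30 for Mir679. Late ranges were −0.17 to 0.21 for Dlk1, −0.031 to 0.094 for Dio3, −0.26 to 0.14 for Mirg and Mir410, −0.19 to 0.00099 for Mir154, −0.11 to 0.019 for Mir341, −0.16 to 0.034 for Mir409, −0.24 to 0.00095 for Mir411 and −0.52 to 0.47 for Mir495. For the difference of effects they were −0.092 to 0.043 for Dio3, −0.18 to 0.21 for Dlk1, −0.0096 to 0.15 for Meg3, −0.024 to 0.64 for Mir665 and −0.034 to 0.36 for Mirg and Mir410. Rian kept its sign under each alternative in each comparison, but with an unmoderated test its unadjusted p was 0.0588 early and 0.18 late. With every probe set included the unadjusted p was 0.0661 for early Mir380, 0.0629 for early Mir136, 0.0549 for early Dcx and 0.0697 for late Mir376b. After quantile normalization it was 0.0616 for both early Mir136 and early Dcx, and after median centring 0.0642 for early Mir136. With the replicate block it was 0.0712 for early Mir380, 0.0808 for early Mir136 and 0.0632 for late Mir376b.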
